A study of Mus musculus with 4 samples.

Results

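T cells were a small share of the cells recovered from the popliteal lymphatic vessels (PLVs) and adjacent superficial saphenous veins of WT and TNF-Tg mice, with 138 cells of 8879 in the WT and TNF-Tg libraries. They were chosen by their own measured transcripts. A cell entered the gate when it held at least 2 unique molecular identifiers (UMIs, each standing for 1 captured transcript) of *Cd3e*, *Cd3d* and *Cd3g* together, fewer than 20 UMIs of the fibroblast gene *Dcn* per 10000 UMIs, and fewer than 10 UMIs of the macrophage genes *C1qa*, *C1qb* and *C1qc* together. In WT, 63 of 5488 cells passed (1.15%, exact 95% interval 0.883 to 1.47). In TNF-Tg, 75 of 3391 cells passed (2.21%, 1.74 to 2.76). All genes of the gate are therefore a description of these cells and not a result about them.

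The single-cell RNA-seq series holds 4 libraries, of which 1 was WT (Wild-Type C57BL6, 9 months in the labels) and 1 was TNF-Tg (9 months). All mice were kept on a C57BL/6J background. TNF-Tg mice carry a human *TNF* transgene and develop chronic inflammatory-erosive arthritis in the joints that the PLVs drain. For each of these libraries, vessels of 3 male mice were pooled, digested and sorted by high forward or side scatter and for exclusion of a dead-cell dye, with no marker of T cells in the sort. The tdT1 and tdT2 libraries came from *Cspg4*-Cre;Ai9-tdTomato mice, in which Cre driven by a pericyte and smooth muscle gene labels muscle cells of the vessel wall, and were sorted for the tdTomato reporter, so their values stand beside the comparison and not within it. WT and TNF-Tg were thus represented by 1 library each, and condition and library cannot be told apart. No p-value is given. All intervals below are exact 95% counting intervals, and UMIs of 1 cell are not independent draws, so they understate the error. The libraries held 68773605 UMIs in WT (median 12660 per cell) and 37557627 in TNF-Tg (median 10605 per cell). WT and TNF-Tg shared 2 cell barcodes, none of them in a T cell, and Scrublet, a doublet caller, marked 0 of the gated cells against 137 and 74 cells in the full libraries.

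T cells recognise antigen through a receptor built from variable chains and carried to the surface by the CD3 proteins. Most use an α and a β chain, read peptide on MHC molecules with the coreceptors CD4 or CD8, and circulate between blood, tissue and lymph. A minority use a γ and a δ chain. Some γδ T cells leave the thymus early, settle in skin, joints and other tissues, carry a nearly fixed receptor and are primed to make interleukin 17. The constant segments *Trac* (α, chr14:54220521-54224206, + strand) and *Trdc* (δ, chr14:54142851-54148868, + strand) lie in 1 locus of mouse build GRCm38 (mm10), and joining of the α chain deletes the δ segments from that chromosome.

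The 3 CD3 genes that define the gate lie side by side on chromosome 9, and the starts of *Cd3d* and *Cd3g*, which are read in opposite directions, are 1355 bases apart. Their promoters are shown because the gate selects on the sum of these genes, and that of *Cd163l1* because its transcript separated the *Trdc* cells described below. Each sequence runs from 250 bases before to 50 bases after the RefSeq start (GRCm38.p6), 5′ to 3′ on the gene's strand. Capitals mark CACCTG, the opposite strand of the E-box CAGGTG, a letter pattern bound by E proteins.
Cd3g, chr9:44980382-44980681, - strand: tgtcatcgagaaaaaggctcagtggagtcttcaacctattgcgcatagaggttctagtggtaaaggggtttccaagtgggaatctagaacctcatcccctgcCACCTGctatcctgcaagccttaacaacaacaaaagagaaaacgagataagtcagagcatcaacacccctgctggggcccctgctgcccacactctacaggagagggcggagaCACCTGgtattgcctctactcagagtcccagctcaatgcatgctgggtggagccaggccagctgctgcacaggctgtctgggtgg
Cd3d, chr9:44981536-44981835, + strand: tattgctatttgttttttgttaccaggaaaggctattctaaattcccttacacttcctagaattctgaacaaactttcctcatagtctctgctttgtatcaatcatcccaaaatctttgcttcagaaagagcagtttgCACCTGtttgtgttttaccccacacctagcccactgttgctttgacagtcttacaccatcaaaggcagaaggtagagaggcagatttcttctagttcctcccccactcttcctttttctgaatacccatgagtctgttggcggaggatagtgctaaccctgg
Cd3e, chr9:45009562-45009861, - strand: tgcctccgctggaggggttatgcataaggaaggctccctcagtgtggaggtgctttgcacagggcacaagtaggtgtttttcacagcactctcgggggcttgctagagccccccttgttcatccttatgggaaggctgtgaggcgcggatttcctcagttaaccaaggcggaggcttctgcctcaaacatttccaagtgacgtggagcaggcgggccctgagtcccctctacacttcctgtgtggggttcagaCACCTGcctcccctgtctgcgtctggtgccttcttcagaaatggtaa
Cd163l1, chr7:140218017-140218316, + strand: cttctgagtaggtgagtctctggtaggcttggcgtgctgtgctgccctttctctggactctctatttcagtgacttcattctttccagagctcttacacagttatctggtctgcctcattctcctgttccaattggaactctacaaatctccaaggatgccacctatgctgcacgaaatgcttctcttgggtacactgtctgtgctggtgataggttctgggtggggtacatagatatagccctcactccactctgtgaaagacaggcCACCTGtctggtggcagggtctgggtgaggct
CAGGTG on either strand occurred at -148 and -35 bases from the start of *Cd3g*, at -112 of *Cd3d*, at 3 of *Cd3e* and at 18 of *Cd163l1*. It was present in 20.2% of all 32851 promoters of the same length, so a match is a description only. The Runx letters TGTGGT (16.8% of all promoters), searched on both strands, had no match in these 4 windows. *Trac* and *Trdc* had no entry in the promoter table.

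Of the variable segments, *Trdv4* (chr14:54074905-54075515, + strand) and *Tcrg-V6* (chr13:19190356-19190929, + strand) are shown because they were found in cells with *Trdc* and in no Trac-only cell. The last 120 bases of each germline transcript are given (GENCODE M21, GRCm38), which precede the point where the segment is joined.
Trdv4: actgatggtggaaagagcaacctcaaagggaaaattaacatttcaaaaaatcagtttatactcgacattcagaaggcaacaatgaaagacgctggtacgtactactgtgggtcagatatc
Tcrg-V6: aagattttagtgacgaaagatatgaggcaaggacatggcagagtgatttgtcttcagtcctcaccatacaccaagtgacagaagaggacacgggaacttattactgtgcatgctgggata

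The gated cells carried T-cell receptor transcripts that the gate did not use. *Trbc2*, the β constant segment, was present in 62 of 63 WT and 72 of 75 TNF-Tg gated cells, against at most 0.344% of stromal and macrophage cells. *Trac* was present in 42 of 63 and 42 of 75, and *Trdc* in 23 of 63 and 30 of 75. In cells that should lack them, *Trac* was found in 0.129% and 0.172% of the stromal cells of WT and TNF-Tg and in 0 of 1804 and 0 of 456 macrophages, and *Trdc* in 0.171% and 0.172% of stromal cells, at median depths of 14766 and 11855 UMIs in stromal and 12671.5 and 13260.5 in macrophage cells. The summed CD3 count had a median of 26 UMIs in WT (range 2 to 66) and 18 in TNF-Tg (2 to 50), at median depths of 8652 and 6488 UMIs per cell. Just inside the gate, with 2 or 3 CD3 UMIs, lay 2 WT and 3 TNF-Tg cells, of which 0 and 1 had *Trac*, 1 and 1 had *Trbc2* and 0 and 0 had *Trdc*. Just outside it, with 1 CD3 UMI, lay 23 WT and 14 TNF-Tg cells, of which 0 and 0 had *Trac*, 3 and 1 had *Trbc2* and 2 and 0 had *Trdc*. A further 1265 WT and 1683 TNF-Tg cells had 0 CD3 UMIs and met the gate's *Dcn* and macrophage limits. Of these, 2 and 0 had *Trac*, 37 and 37 had *Trbc2* and 7 and 8 had *Trdc*. With 10 or more CD3 UMIs, 59 of 59 WT and 65 of 66 TNF-Tg cells had *Trbc2*. The receptor genes, which the gate did not use, thus matched the label for these cells.

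Markers of other cell types were low but not absent. The B-cell genes *Cd79a* and *Ms4a1* and the endothelial genes *Cdh5* and *Prox1* were at 0 in both gated sets. The 8 macrophage markers summed to 226 CPM (UMIs per 1e+06 UMIs of the class) in WT and 54.8 in TNF-Tg T cells, against 28957 and 5369 CPM in the other leukocytes, with *Apoe* the most abundant (78 and 11 UMIs). These markers include *C1qb*, which the gate caps, so its part of the low sum follows from the gate. A few gated cells held many myeloid or MHC class II transcripts. By a minimum of 10 UMIs of 12 myeloid or 4 MHC class II genes, chosen after seeing the data, 6 WT (9.52%) and 7 TNF-Tg cells (9.33%) were marked, and these had median depths of 14395.5 and 14188 UMIs against 8586 and 6313 in the rest. Of the marked cells, 4 WT and 5 TNF-Tg had *Trac* without *Trdc*, and 0 had *Trdc* without *Trac*. Each comparison below is given with and without these cells where they change it, and whether they are doublets was not tested beyond the Scrublet call.

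T cells took a larger share of the TNF-Tg library than of the WT library, with a log2 ratio of 0.95 (0.44 to 1.45). Among leukocytes alone, meaning T-gated cells together with other cells low in *Dcn* with a *Ptprc* (CD45) UMI, the share was 2.29% (1.77 to 2.92) in WT and 3.8% (3.00 to 4.74) in TNF-Tg, a log2 ratio of 0.73 (0.23 to 1.24). The interval excluded 0 on both denominators. It covers the counting of cells only, and the spread between mice within each pool was not measured. The reporter-sorted tdT1 and tdT2 libraries, which share a genotype, held 0.997% and 4.19% T cells by the same gate.

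Division by receptor transcript gave 4 classes. In WT, 32 of 63 T cells had *Trac* and no *Trdc* UMI (Trac-only, 50.8%, 37.9 to 63.6), 13 had *Trdc* and no *Trac* (Trdc-only, 20.6%, 11.5 to 32.7), 10 had both and 8 had neither. In TNF-Tg, the numbers were 35 of 75 (46.7%, 35.1 to 58.6), 23 (30.7%, 20.5 to 42.4), 7 and 10. The share of Trdc-only cells among T cells was higher in TNF-Tg by 0.57 on the log2 scale, but the interval of -0.47 to 1.68 included 0. As a share of all cells, Trac-only cells were higher in TNF-Tg by 0.82 (0.09 to 1.56) and Trdc-only cells by 1.52 (0.48 to 2.62).

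The chains were not detected with equal ease. Trac-only cells held a median of 4 *Trac* UMIs in WT (range 1 to 15) and 2 in TNF-Tg (1 to 7), whereas Trdc-only cells held a median of 26 *Trdc* UMIs in WT (9 to 49) and 11 in TNF-Tg (2 to 40). After each cell was thinned to 1500 UMIs, with no cell left out, the Trac-only share fell to 25.4% in WT and 24.0% in TNF-Tg, and the Trdc-only share stood at 27.0% and 30.7%. The share with neither chain was 42.9% and 41.3% after thinning. The Trac-only and neither shares thus depended on depth, and neither is not a cell type.

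**Figure D1:**
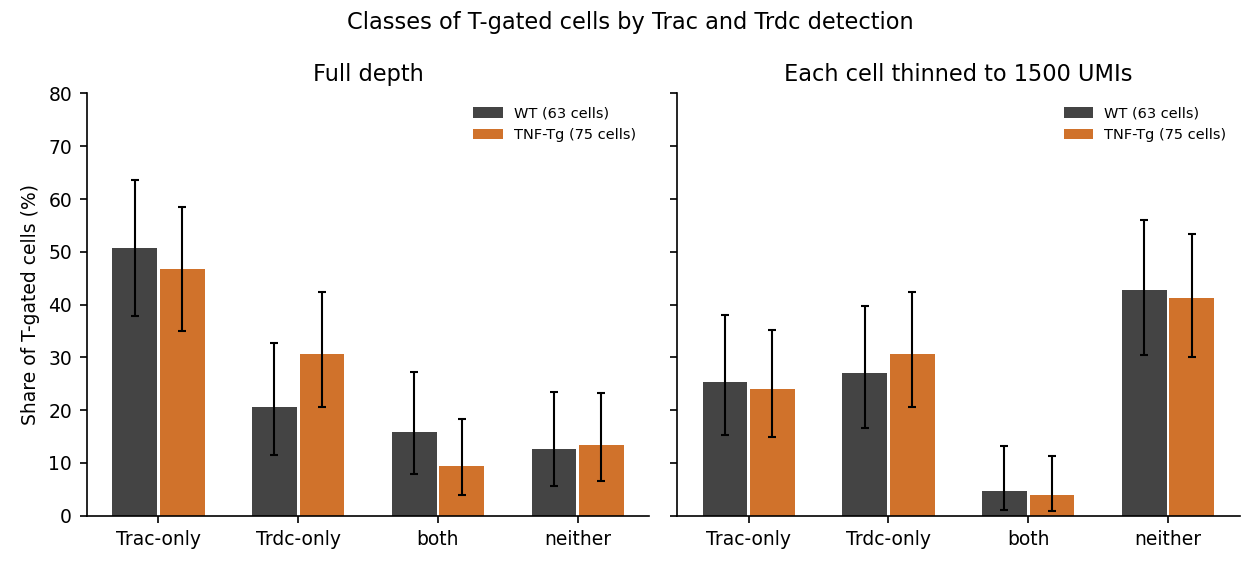
Share of T-gated cells (percent, y axis) in each receptor class for WT (63 cells) and TNF-Tg (75 cells), at full depth and after thinning every cell to 1500 UMIs; bars are shares and lines are exact 95% intervals. The WT and TNF-Tg intervals overlap in every class, and thinning moves cells from Trac-only to neither.

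Cells with both chains resembled the Trdc-only cells in their counts. *Trdc* exceeded *Trac* in 8 of 10 such WT cells and in 7 of 7 TNF-Tg cells, and *Trac* rested on 1 UMI in 4 and 4 of them. *Trdv4* and *Cd163l1* were detected in 8 of the 10 WT and in 4 of the 7 TNF-Tg cells. They were kept as a class of their own and entered neither side of the comparison of classes.

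**Figure D2:**
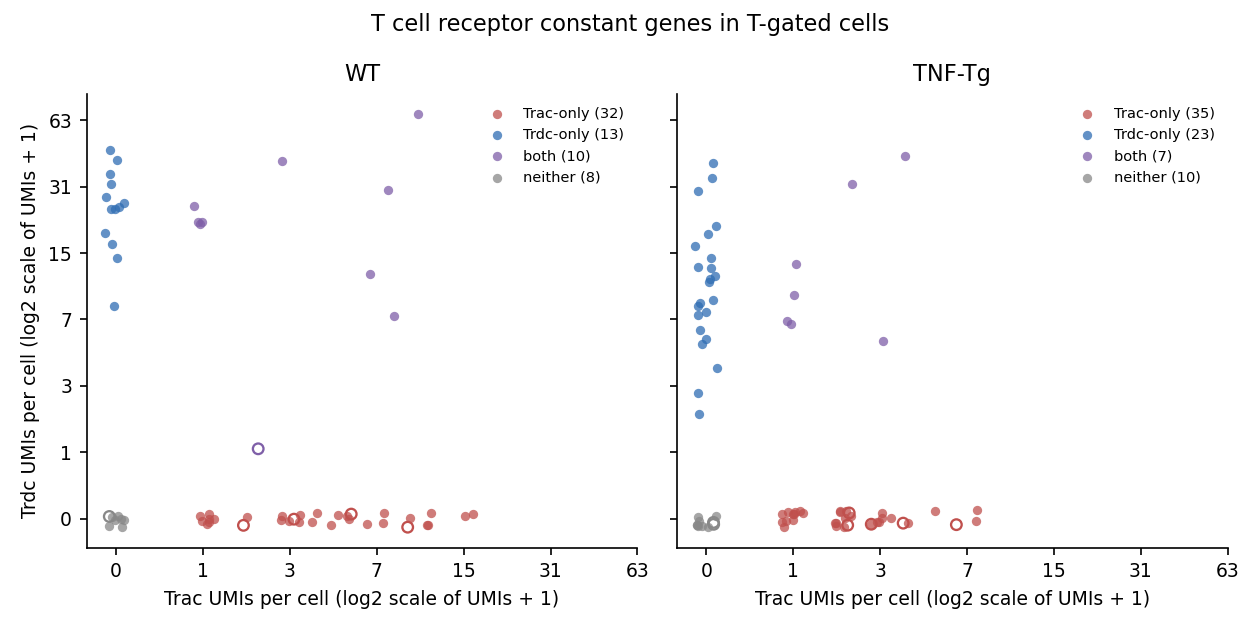
*Trac* UMIs (x axis) against *Trdc* UMIs (y axis) of each T-gated cell, on a log2(UMIs + 1) scale with points jittered, in WT (left) and TNF-Tg (right); colour gives the receptor class and open circles are myeloid-marked cells. Trdc-only cells reach 49 UMIs in WT and 40 in TNF-Tg, while Trac-only cells stay at or below 15 and 7.

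Variable segments separated the classes. *Trdv4*, a δ variable segment of the early tissue-resident γδ receptor, was found in 11 of 13 WT Trdc-only cells (84.6%, 54.6 to 98.1) and in 13 of 23 TNF-Tg cells (56.5%, 34.5 to 76.8), at 1868 and 1188 CPM. *Tcrg-V6*, the γ segment of that receptor, was found in 6 of 13 and 10 of 23. Neither segment had a UMI in the 32 and 35 Trac-only cells. *Trgv2*, another γ segment, was found in 9 of 13 and 16 of 23 Trdc-only cells, at 559 and 575 CPM. It was also found in 8 of 32 and 5 of 35 Trac-only cells, at 111 and 30.04 CPM, and was thus higher in Trdc-only cells in both libraries without being absent from the others. The γ constant gene *Tcrg-C1* (chr13:19214103-19217024, + strand) stood at 1090 CPM in WT Trdc-only against 49.8 in Trac-only cells, and at 636 against 33.4 in TNF-Tg. *Tcrg-C1* and *Tcrg-C2* transcripts matched at 93.24% of 296 compared bases of their 3′ ends, so reads may be split between them.

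Coreceptors were looked at in the Trac-only cells. In WT, 7 of 32 had *Cd4* alone, 7 had *Cd8a* or *Cd8b1* alone, 1 had both and 17 had neither. In TNF-Tg, 2 of 35 had *Cd4* alone, 15 had *Cd8a* or *Cd8b1* alone, 0 had both and 18 had neither. Without the myeloid-marked cells, *Cd4* alone was found in 7 of 28 WT and 1 of 30 TNF-Tg cells, and *Cd8a* or *Cd8b1* alone in 7 of 28 and 13 of 30. At 1500 UMIs per cell the same numbers were 3 and 0, and 4 and 6. *Cd4* UMIs were also found in 10.0% of WT and 13.6% of TNF-Tg macrophages, and in 2 of the 3 gated TNF-Tg cells that held it the class was Trac-only. *Cd8b1* was found in at most 0.0860% of stromal cells. Among Trdc-only cells, *Cd4* was found in 1 of 13 WT and 0 of 23 TNF-Tg cells, and neither *Cd8a* nor *Cd8b1* was found in any. *Foxp3*, the factor of regulatory T cells, was found in 4 of 32 WT and 6 of 35 TNF-Tg Trac-only cells and in no Trdc-only cell.

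Trdc-only cells held more transcripts of an interleukin 17 programme and fewer of circulating T cells than Trac-only cells, in both libraries. A gene was called when it had at least 20 UMIs in the cells compared, its level differed at least 2-fold the same way in WT and in TNF-Tg with both intervals excluding equality, at least 10% of the cells of the higher class held it, and the fold remained at least 2 without the cell holding most of its UMIs. Of 4762 genes tested, 145 (3.04%) were higher in Trdc-only and 66 (1.39%) were higher in Trac-only cells, with a median log2 ratio of 0.21 in WT and 0.26 in TNF-Tg. *Trdc* and *Trac*, which define the classes, are among these calls by construction. Trdc-only cells were shallower (median 7565 and 5412 UMIs per cell against 9022.5 and 7293). When ribosomal protein and mitochondrial UMIs were left out of the totals, 84 genes were higher in Trdc-only and 92 in Trac-only cells and the WT median was -0.02, so the share of calls toward Trdc-only cells moved from 68.7% to 47.7%. The balance of calls is therefore a matter of scaling, while no named gene changed direction with it.

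Of the 16 listed genes of the interleukin 17 programme that the files hold, 14 were tested and 12 were called, all higher in Trdc-only cells, with a median log2 ratio of 2.27 in WT and 3.41 in TNF-Tg beside the 0.21 and 0.26 of all genes. *Maf*, a factor required for this γδ lineage, was at 1185 CPM in WT Trdc-only against 352 in Trac-only cells and 802 against 100 in TNF-Tg, with log2 ratios of 1.75 (1.38 to 2.13) and 3.00 (2.41 to 3.64). It was thus higher in the Trdc-only cells of both libraries. *Blk*, a Src family kinase, was at 284 against 41.1 CPM and 303 against 10.0 CPM. *Cxcr6*, a receptor that holds lymphocytes in tissue, was at 1545 against 270 CPM in WT and 1408 against 100 in TNF-Tg, and was present in 13 of 13 and 23 of 23 Trdc-only cells against 9 of 32 and 8 of 35 Trac-only cells. *Il23r*, *Il1r1*, *Sox13*, *Aqp3*, *Ltb4r1*, *Tmem176a* and *Tmem176b* were also called. *Il23r* was not called without the myeloid-marked cells, none of which was Trdc-only.

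The cytokine itself was scarce. *Il17a* was found in 1 of 13 WT and 2 of 23 TNF-Tg Trdc-only cells, and *Il17f* in 0 of 13 and 2 of 23. A difference between the libraries in either was not detectable at this depth. *Tnfsf11*, which encodes the osteoclast cytokine RANKL, was higher in Trdc-only cells at 56.9 against 5.86 CPM in WT and 121 against 6.68 in TNF-Tg.

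The most strongly separated genes were receptor segments and a few genes of other functions. *Cd163l1* (SCART1, chr7:140218267-140231145, + strand), a scavenger receptor of γδ T cells, stood at 1176 CPM in WT and 636 in TNF-Tg Trdc-only cells and at 0 UMIs in Trac-only cells, at least 134-fold higher in WT against a floor of 3 UMIs over the class. *Rapsn*, known for anchoring acetylcholine receptors at the neuromuscular junction, was at 265 against 2.93 CPM in WT, a log2 ratio of 6.50 (3.90 to 11.85), and at 219 against 6.68 in TNF-Tg. *Kcnk1*, a potassium channel, was at 180 against 8.80 and 182 against 13.4 CPM. *Tcrg-C4*, *Podnl1*, *Irak3* (an inhibitor of interleukin 1 receptor signalling), *Il1r1*, *Cryba4* (a lens crystallin), *Smox* (spermine oxidase) and *Ly6g5b* completed the named genes, with WT log2 ratios between 3.18 for *Ly6g5b* and 4.50 for *Smox*. Of the CD3 genes, whose sum the gate selects on and whose levels are a description only, *Cd3g* was at 2181 against 768 CPM in WT and 2119 against 788 in TNF-Tg. *Cd3d* was at 976 against 803 and 1060 against 838 CPM, with median counts of 7 and 7 UMIs in WT and 6 and 7 in TNF-Tg.

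Some proximal signalling genes separated the classes in the other direction. *Lck*, the kinase that starts α-β receptor signalling, had 0 UMIs in the 13 WT and 23 TNF-Tg Trdc-only cells, but was present in 24 of 32 and 29 of 35 Trac-only cells at 173 and 270 CPM. Against the floor, the log2 ratio was at most -2.60 in WT and at most -3.57 in TNF-Tg. *Cd2*, an adhesion receptor, was at 9.48 against 249 CPM and 37.8 against 330 CPM. Of 13 genes tested in this list, *Lck*, *Fyb*, *Cd2*, *Cd5* and *Cd6* were lower in Trdc-only cells and *Cd247*, the CD3 ζ chain, was higher, at 322 against 126 and 272 against 63.4 CPM. The list's median was -0.88 in WT and 0.04 in TNF-Tg, so it did not move as one. Leaving out the myeloid-marked cells ended the calls of *Cd6* and *Cd247*. *Trbc2* was present in 13 of 13 and 23 of 23 Trdc-only cells, at 607 and 1029 CPM against 927 and 1038 in Trac-only cells, and was not called. The first 400 bases of the *Trbc1* and *Trbc2* transcripts matched at 396 positions. A search of their last 300 bases for a long ungapped stretch with mostly the same letters found none. A split of reads between the pair was not tested.

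Genes of naive and circulating T cells were lower in Trdc-only cells. Of 8 listed and tested, 4 were called and none the other way, with a median log2 ratio of -2.53 in WT and -2.01 in TNF-Tg. *S1pr1*, the receptor that guides exit from tissue and lymph nodes, was at 0 against 214 CPM in WT and 22.7 against 197 in TNF-Tg. *Lef1* and *Satb1* were also called, and without the myeloid-marked cells *Ccr7* and *Tcf7* were called as well. *Il7r* was held by both classes, at 683 against 472 and 711 against 524 CPM. Among tissue retention genes, *Cxcr6* and *Itgae* were higher in Trdc-only cells of 6 tested.

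Of 9 tested cytotoxic genes, 2 were called higher in Trac-only cells and 1 in Trdc-only cells, and of 3 tested type 1 genes 1, *Ccl5*, was higher in Trac-only cells, beside the 1.39% and 3.04% of all genes. *Ccl5*, a chemokine of memory and cytotoxic T cells, stood at 2182 CPM in WT (11 of 32 cells, at most 307 UMIs in a cell) and 3284 in TNF-Tg (15 of 35, at most 175), and at 0 UMIs in Trdc-only cells. *Nkg7*, a granule protein, was at 308 and 307 CPM against 0 and 0. *Ms4a4b*, a membrane protein of T cells, was at 974 CPM against 0 in WT and 1041 against 98.4 in TNF-Tg. Among the cytotoxic genes, *Klrd1* was the other called higher in Trac-only cells, and *Cst7* was the gene higher in Trdc-only cells. *Gzma* rested on 172 UMIs of 1 WT cell. *Ifi27l2a*, an interferon-inducible gene, was at 28.4 against 1358 CPM in WT, a log2 ratio of -5.58 (-7.86 to -4.02), and was the 1 gene called of 6 tested interferon genes. *Gimap4*, a GTPase of resting lymphocytes, had a WT log2 ratio of -4.04 (-9.37 to -1.49). Of the remaining lists, *Capg*, *Tnfsf14* and *Tnfrsf25* were higher in Trdc-only cells, *Tnfrsf18*, *Junb* and *Mt1* were higher in Trac-only cells, and 0 proliferation, type 2, checkpoint and glucocorticoid response genes were called. Of these, *Tnfsf14*, *Tnfrsf25*, *Junb* and *Mt1* were not called without the myeloid-marked cells.

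**Figure D3:**
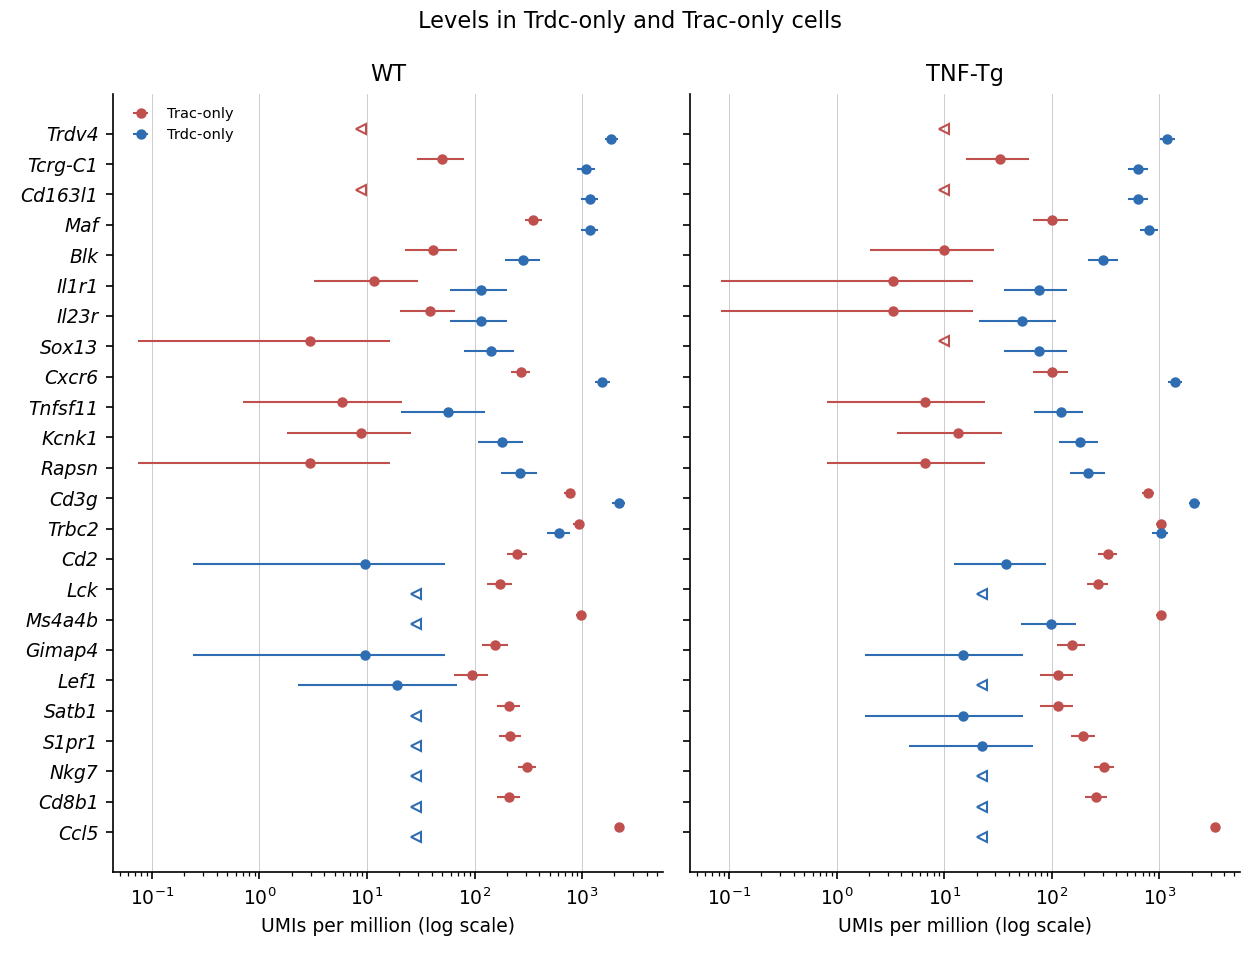
Level (CPM, log axis) of 24 genes in Trac-only and Trdc-only cells of WT and TNF-Tg; points are summed levels with exact 95% Poisson intervals, and open triangles are genes at 0 UMIs drawn at the 3-count floor. *Trdv4* and *Cd163l1* have no UMI in Trac-only cells, and *Lck*, *Nkg7*, *Cd8b1* and *Ccl5* have none in Trdc-only cells.

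Myeloid and antigen presentation genes were also among the Trac-only calls. The myeloid-marked cells were chosen by these genes, so that their values fall without those cells follows from the choice. *Cd74*, *H2-Aa*, *H2-Ab1* and *H2-Eb1* summed to 6595 CPM in WT and 10925 in TNF-Tg Trac-only cells against 275 and 68.1 in Trdc-only cells. The 12 myeloid genes summed to 1003 and 481 CPM in Trac-only cells, with *Lyz2* most abundant (294 and 87 UMIs) and *Fcgr1* at 0 in both. In Trdc-only cells they summed to 171 and 83.2 CPM. Without the marked cells, 125 genes of 4086 tested were higher in Trdc-only and 52 in Trac-only cells, of which 106 and 45 were called with all cells. *Ccl5*, *Ifi27l2a*, *Nkg7*, *Ms4a4b*, *Gimap4*, *Cd2*, *Cd8b1*, *Satb1* and *S1pr1* were among the 15 named then, together with *Ms4a6b*, *Dgka*, *Ctla2a* and *Ly6c2*. *Trac*, which defines the class, was also among them.

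The tdT2 library, which the calls did not use, held 10 Trdc-only and 8 Trac-only cells. Of the 145 genes higher in Trdc-only cells, 117 had at least 5 UMIs there and 89 (76.1%) had a ratio in the same direction, against 54.3% of all tested genes. Of the 66 genes higher in Trac-only cells, 31 of 34 (91.2%) had the same direction, against 45.7%. These counts include *Trdc* (123 and 0 UMIs) and *Trac* (0 and 25), whose direction follows from the definition of the classes. *Cxcr6* had 70 UMIs in the Trdc-only and 10 in the Trac-only cells of tdT2, *Maf* had 51 and 6, and *Lck* had 0 and 10. *S1pr1* (5 and 1 UMIs) and *Trgv2* (9 and 13) ran the other way there. *Trdv4* was found in 9 of 10 and 0 of 8.

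The Trdc-only cells of TNF-Tg mice mostly held either *Cd163l1* or a related scavenger receptor, and those of WT mice held *Cd163l1*. This division was chosen after its values were seen. *Cd163l1* was present in 13 of 13 WT Trdc-only cells (100%, 75.3 to 100) but in 14 of 23 TNF-Tg cells (60.9%, 38.5 to 80.3). *5830411N06Rik* (SCART2), the related receptor, was found in 1 of 13 WT (7.69%, 0.195 to 36.0) and 8 of 23 TNF-Tg cells (34.8%, 16.4 to 57.3). For both receptors, the WT and TNF-Tg intervals overlapped. In TNF-Tg it was found in 0 of the 14 cells with *Cd163l1* and in 8 of the 9 without. Among cells with both chains, the TNF-Tg library held 4 with *Cd163l1* and 3 others with *5830411N06Rik*, and the WT library held 8 with *Cd163l1* and 0 with *5830411N06Rik*. *5830411N06Rik* was not limited to cells with *Trdc*, being also found in 2 of 32 WT and 1 of 35 TNF-Tg Trac-only cells and in 2 of 8 WT and 0 of 10 TNF-Tg cells with neither chain. Over all T cells it was found in 5 of 63 in WT (7.94%, 2.63 to 17.6) and 12 of 75 in TNF-Tg (16.0%, 8.55 to 26.3), and these intervals overlapped. After thinning to 1500 UMIs, *Cd163l1* was found in 11 of 13 WT and 9 of 23 TNF-Tg Trdc-only cells, and *5830411N06Rik* in 0 and 5. TNF-Tg cells with *Cd163l1* had a median depth of 6406.5 UMIs and those without it of 4505.

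**Figure D4:**
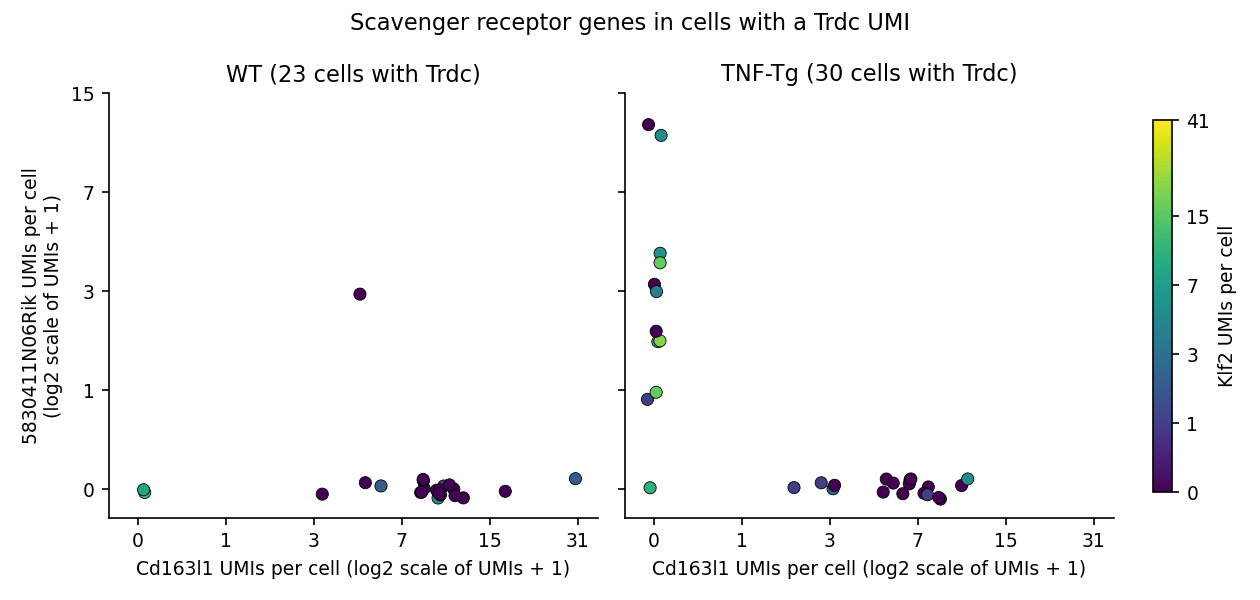
*Cd163l1* UMIs (x axis) against *5830411N06Rik* UMIs (y axis) of each cell with a *Trdc* UMI, 23 in WT and 30 in TNF-Tg, points jittered, coloured by *Klf2* UMIs. In TNF-Tg no cell holds both receptors, and in WT 1 cell does.

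The TNF-Tg Trdc-only cells without *Cd163l1* differed from those with it in other genes, given as values. *Trdv4* was found in 1 of the 9 (157 CPM) against 1711 CPM in the 14. *Tcrg-V6*, *Rapsn* and *Il1r1* were at 0 UMIs in the 9 against 205, 331 and 114 CPM in the 14. *Tcrg-C2* was at 630 against 194 CPM and *Tcrg-C1* at 270 against 821, so these γ constant genes ran in opposite directions, while *Tcrg-C4* was at 225 against 217. *Klf2*, a factor of circulating lymphocytes (chr8:72319033-72321656), was at 1507 CPM in the 9 (67 UMIs in 8 cells) against 57.0 in the 14 and 75.8 in the WT Trdc-only cells. *Ms4a4b* was found in 5 of the 9 and 0 of the 14. *Ckb* (creatine kinase B) was at 157 against 867 CPM and *Bcl2*, a survival gene, at 22.5 against 388. Both groups held *Maf* (472 and 969) and *Cxcr6* (1125 and 1551). These 9 cells come from 1 library. The tdT1 and tdT2 libraries held 1 Trdc-only cell each without *Cd163l1*. In tdT2 this cell had 1 UMI of *5830411N06Rik*, 2 of *Klf2* and 3 of *Ms4a4b*, while the 9 cells with *Cd163l1* had 0, 7 and 0 UMIs together. The tdT1 cell had 0, 8 and 8. *Trdv4*, *Tcrg-V6* and *Rapsn* had 0 UMIs in both cells, which are too few for a comparison.

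TNF-Tg T cells were then compared with WT T cells. Of 5749 genes tested over all gated cells, 54 (0.939%) were higher in TNF-Tg and 250 (4.35%) were higher in WT, with a median log2 ratio of -0.17, beside a median of -0.15 in the cells outside the gate. With ribosomal and mitochondrial UMIs left out of the totals, 74 were higher in TNF-Tg and 194 in WT, and the median was -0.07. Many calls ran the same way in cells that were not T cells. Outside the gate, 46 of the 54 (85.2%) were higher in TNF-Tg and 194 of 249 (77.9%) were higher in WT, against 52.3% and 47.7% of all tested genes with a ratio there. A 2-fold difference outside the gate was reached by 18 of the 54 and 25 of the 249, against 4.05% and 3.23% of all tested genes. The cells outside the gate differed in make-up, with 1804 macrophages of 5425 cells in WT and 456 of 3316 in TNF-Tg. The part of this in the ratios outside the gate was not tested. Without the myeloid-marked cells, 41 and 237 genes of 5154 were called, of which 23 and 174 were called with all cells.

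*Lars2*, the mitochondrial leucyl-tRNA synthetase, was at 454 and 122 CPM, a log2 ratio of -1.89 (-2.30 to -1.50), with -0.99 outside the gate. It was thus lower in TNF-Tg both inside and outside the gate, with a smaller difference outside. *Ctsw*, a cathepsin of cytotoxic lymphocytes, was at 50.04 and 139 CPM (log2 1.47, 0.85 to 2.12). *Cd55*, a complement inhibitor, was at 14.5 and 63.9 CPM (log2 2.14, 1.05 to 3.38), and ran the other way outside the gate at -0.75. *Fcer1g* and *Tyrobp*, signalling adaptors of natural killer and myeloid cells, had log2 ratios of 2.22 and 2.74 without the myeloid-marked cells, with *Tyrobp* in 7 of 57 WT and 11 of 68 TNF-Tg cells. *Napsa* (3.55), *Ifitm3* (1.90), *Matk* (3.35), *Ifitm2*, *Ifi30*, *Ms4a4c*, *Cd300a*, *Ms4a6c* and *Fgr* were called with all cells and not without the marked cells. *Napsa*, *Matk*, *Cd300a* and *Fgr* then fell under the minimum of 20 UMIs. The log2 ratios of *Ifitm3* (2.41) and *Ms4a6c* (1.81) were larger without the marked cells, but both were 0.26 without the highest cell, while *Ifitm2* (0.64), *Ifi30* (0.45) and *Ms4a4c* (0.85) stood below 2-fold.

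Of the 8 macrophage markers, 2 were tested and both, *Apoe* and *C1qb*, were higher in WT T cells, while 0 of 4 tested monocyte markers were called. Some genes of myeloid cells, picked from the calls and not from a fixed list, ran the other way. *Fcer1g*, *Ifi30*, *Cd300a*, *Ms4a6c* and *Fgr*, called higher in TNF-Tg T cells, had log2 ratios of 0.91, 1.29, 1.33, 0.84 and 1.87 outside the gate. Of these, only *Fcer1g* was called without the myeloid-marked cells. *Apoe* was at 126 and 20.1 CPM, a log2 ratio of -2.65 beside -2.57 outside the gate. *Ccl8*, a macrophage chemokine, had 64 UMIs in 26 WT cells and 1 in TNF-Tg, a log2 ratio of -5.82 (-11.15 to -3.29) beside -3.11 outside. *Retnla*, a gene of alternatively activated macrophages, had 368 UMIs in 25 WT cells, 334 of them in 1 cell, and 0 in TNF-Tg, while its level outside the gate was 3177 and 438 CPM. *C1qb*, which the gate itself caps, had a log2 ratio of -4.41, and of -2.19 without the marked cells, when it fell under 20 UMIs and was not tested. The part of free RNA in these values was not tested.

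Of 6 tested proliferation genes, 3 were higher in WT T cells and 0 in TNF-Tg. *Top2a* was at 273 and 12.8 CPM (log2 -4.42, -5.75 to -3.34) and *Mki67* at 181 and 9.13 CPM (-4.31, -5.96 to -3.04). Of 27 histone genes tested, 0 were higher in TNF-Tg and 9 were higher in WT. With at least 10 UMIs of *Mki67* and *Top2a* together, a minimum chosen after seeing the data, 4 WT cells and 0 TNF-Tg cells were marked as proliferating, of which 1 was Trac-only and 3 held both chains. Without these 4 cells, which were chosen by *Mki67* and *Top2a* so that the fall of these genes follows from the choice, the log2 ratios of *Hist1h2ap* and *Hist1h2ae* turned to 2.40 and 1.64. Over all gated cells, TNF-Tg held 70 and 19 UMIs of these histone genes, but 25 and 6 without the myeloid-marked cells. *Cks1b*, *Cenpa*, *Tacc3*, *Hist1h1d*, *Hist1h3f* and *Hist2h2ac* completed the named genes.

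**Figure D5:**
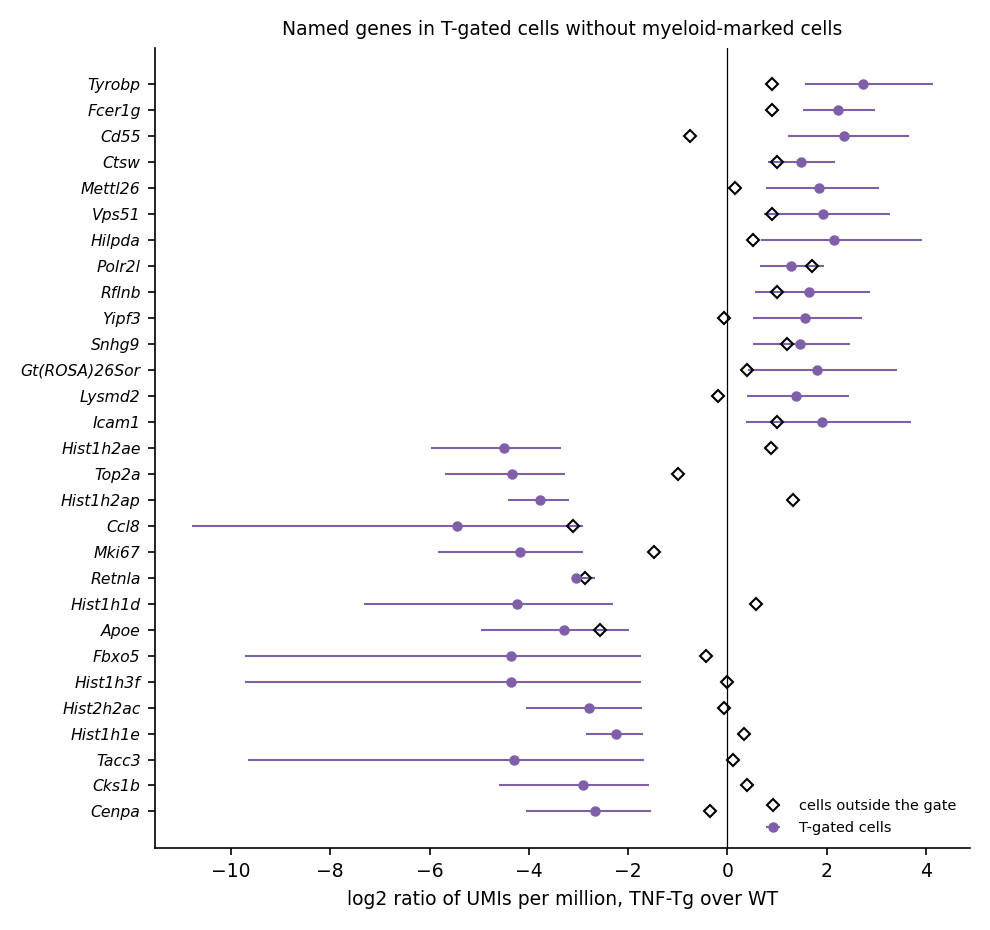
Log2 ratio of TNF-Tg over WT (x axis) for 29 named genes in T-gated cells without the myeloid-marked cells, with exact 95% intervals; open diamonds are the same ratio in cells outside the gate. *Apoe*, *Ccl8* and *Retnla* lie on the same side of 0 inside and outside the gate, and *Cd55* does not.

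The counts of the gene lists are read beside the 0.939% and 4.35% of all genes called higher in TNF-Tg and in WT. Of the 16 tested genes of the TNF family and NF-κB list, which does not hold every family member, 0 were called over all T cells in either direction (median -0.27 beside -0.17). Likewise 0 of 8 naive, 0 of 7 interferon, 0 of 7 γδ chain and 0 of 10 chemokine receptor genes were called, which for lists of this size is near the share over all genes. *Il23r* (64.6 and 23.7 CPM) and *Sox13* (45.2 and 18.3) of 14 interleukin 17 genes were higher in WT, and so were *Itgae* of 6 retention genes, *Fosb* of 10 immediate-early genes and *Pdcd1* of 2 checkpoint genes. *Fkbp5* and *Klf9*, targets of the glucocorticoid receptor, were higher in WT of 5 tested, at 98.5 and 32.9 CPM and at 58.1 and 18.3 CPM, and their log2 ratios outside the gate were -2.22 and -2.07. *Cd4* was at 35.5 and 7.30 CPM (log2 -2.28, -4.28 to -0.72). Of 10 cytotoxic genes, *Klrd1* and *Ctsw* were higher in TNF-Tg and *Prf1* in WT. *Tnfrsf4* (OX40), a TNF receptor family member held in the regulatory list, was higher in TNF-Tg at 20.98 and 190 CPM (log2 3.18). Without the myeloid-marked cells its log2 ratio was 3.61, but 6 of 68 TNF-Tg cells held it, under the minimum share, so it was not called.

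Within Trac-only cells, 51 of 3647 genes (1.4%) were higher in TNF-Tg and 189 (5.18%) were higher in WT. Without the marked cells, 26 and 134 of 2746 were called. *Maf* was then at 423 CPM in WT and 130 in TNF-Tg (log2 -1.70, -2.35 to -1.09), and *Cxcr6* at 327 and 135 (-1.28, -1.94 to -0.66). Both were lower in TNF-Tg Trac-only cells, and in Trdc-only cells neither was called, at log2 ratios of -0.56 and -0.13. *Maf* was also lower in TNF-Tg outside the gate (-1.12) and in other leukocytes (-1.32). The difference between the classes was not tested. *Fkbp5* was at 99.0 and 14.0 CPM (-2.83, -5.19 to -1.12). *Tnfrsf4* had a log2 ratio of 4.01, with its 66 TNF-Tg UMIs in 5 cells and a ratio of 1.81 without the highest cell, and *Tnfrsf9* (4-1BB) one of 4.04 with 27 UMIs in 4 cells. *Ccr6* (-3.03), *Cd44*, *Ahnak* (-1.72), *Lmna* (-2.14) and *Lgals1* (-1.18) were lower in TNF-Tg, and *Foxp1* (1.38), a factor of lymphocyte quiescence, was higher.

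Within Trdc-only cells, 24 of 1776 genes (1.35%) were higher in TNF-Tg and 57 (3.21%) were higher in WT, with a median of -0.04. *Klf2* was at 75.8 CPM in WT and 545 in TNF-Tg, a log2 ratio of 2.84 (1.79 to 4.11) beside 0.13 outside the gate. Among cells with *Cd163l1* alone, chosen after seeing the data, its log2 ratio was -0.41 (-2.37 to 1.38), so the *Klf2* difference moved with the 9 cells without *Cd163l1*. *5830411N06Rik* was at 28.4 and 219 CPM (2.95, 1.26 to 5.31). Mouse *Tnf* was at 161 CPM in WT (17 UMIs in 8 of 13 cells) and 30.3 in TNF-Tg (4 UMIs in 3 of 23), a log2 ratio of -2.41 (-4.44 to -0.80), while outside the gate it was higher in TNF-Tg at 1.45. Among cells with *Cd163l1*, *Tnf* had 17 and 2 UMIs, under the minimum of 20, and a log2 ratio of -2.82 (-5.98 to -0.75). *Nfkbia* (log2 -1.42), *Cd69* (-1.33), *Itgae* (-1.57), *Fkbp5* (-1.25) and *Klf9* (-1.83) were also lower in TNF-Tg Trdc-only cells. Among cells with *Cd163l1*, *Nfkbia* (-1.06), *Cd69* (-1.25), *Fkbp5* (-0.81) and *Klf9* (-1.24) were not called, and *Itgae* was.

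Several Trdc-only differences held among cells with *Cd163l1* alone, where 23 of 1456 genes were higher in TNF-Tg and 39 in WT. *Pxdc1* (log2 2.11) was higher in TNF-Tg. *Fosb* (-1.97), an immediate-early factor, *Il2ra* (-1.46), the interleukin 2 receptor α chain, *Lars2* (-2.18), *Parp1* (-1.96), *Ppp1r14c* (-2.40) and *Itgae* (-1.98), an integrin of epithelial residence, were higher in WT. *Fosb* was also higher in WT outside the gate (-1.41), whereas *Itgae* stood at 0.11 and *Parp1* at 0.36 there. *Ccdc59*, *Llph* and *Cox17* (1.41) were among the genes called higher in TNF-Tg over all Trdc-only cells.

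Set against the other leukocytes of their library, which is a description because the gate selects on CD3, T cells were marked by receptor genes and by some genes of other tissues. *Actn2*, an α-actinin of striated muscle, was at 229 CPM in WT and 144 in TNF-Tg T cells against 0.151 and 0.145 in other leukocytes, and was found in 31 of 63 and 29 of 75 T cells. *Dapl1* was found in 8 and 13 cells. *Trgv2*, *Tcrg-C2*, *Ccr6*, *Blk*, *Cd163l1*, *Kcnk1*, *Ly6g5b*, *Il17re*, *Podnl1* and *Cd5* followed. All of these but *Ccr6* and *Cd5* were called higher in Trdc-only than in Trac-only cells.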

How the data were processed

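The authors made the deposited count matrices (whole-number UMI counts per gene and cell) with Cell Ranger, version 3.1.0 in the labels and in the tdT1 header and 6.0.1 in the headers of the tdT2, WT and TNF-Tg files, on mm10, and the labels also name Seurat 4.0.3. The files hold 32285 genes, of which 32158 matched GENCODE M21 by ID. Counts were summed over cells of a class and divided by the class total (CPM, per 1e+06 UMIs). Exact Clopper-Pearson, Poisson and conditional binomial intervals came from scipy 1.17.1 (Python 3.11.15, pandas 2.3.3, numpy 2.4.6), and Scrublet was run in scanpy 1.11.5. Zero sums were set to a floor of 3 counts. Depth limits the precision: T cells held 619498 UMIs in WT and 547671 in TNF-Tg. The scripts were tested on simulated data.

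Named were the 15 genes in each direction with the largest smaller log2 ratio of both libraries (classes) or the interval bound farthest from 0 (TNF-Tg against WT), all gate and receptor genes, and list members. Mitochondrial, ribosomal protein, Gm and Rik genes were counted but not named by this rule. *5830411N06Rik* is a list member. The members, lists and rules were chosen with earlier results of these data known. Alternatives changed the gate, chain minimum, UMI minimum, fold, scaling, depth and cells. Samples were grouped by their labels. A few genes that these rules name are not reported here.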

Additional observations from a re-analysis of the deposited data

Results flagged for a closer look

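T cells were also present in the libraries that no comparison used. The same gate passed 15 of 1504 cells of tdT1 (0.997%, 0.559 to 1.64) and 19 of 454 cells of tdT2 (4.19%, 2.54 to 6.46), although both were sorted for the tdTomato reporter. Of the 15 tdT1 cells, 6 held no *Dcn* UMI. The highest held 18.3 *Dcn* UMIs per 10000, against at most 1.83 in WT and 3.90 in TNF-Tg T cells. Mitochondrial UMIs exceeded 10% in 1 of the 15, at 38.6%.

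In 2 genes, the difference between the receptor classes ran in opposite directions in the libraries. *Ccdc59*, a nuclear protein gene, had a log2 ratio of Trdc-only over Trac-only cells of -2.01 in WT and 1.44 in TNF-Tg. The WT value rested on 2 and 26 UMIs. Without the myeloid-marked cells it rested on 2 and 12 UMIs, and the log2 ratios were -1.27 and 1.70. *Pxdc1* had -1.69 in WT and 2.71 in TNF-Tg, and -2.06 and 2.23 without the myeloid-marked cells. The difference between the libraries was not tested.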

How the results depend on the processing

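Each value rests on 1 library per condition, so counting intervals are the only error. No paired analysis was possible because WT and TNF-Tg share only replicate number 1, with 1 library each. Leaving out doublet calls or low-quality cells changed none of the 11 main values or the 90 values of named genes, since no gated WT or TNF-Tg cell was affected. With 1 CD3 UMI enough, the WT share of T cells was 1.57%. The Trac-only share fell to 25.4% (WT) and 24.0% (TNF-Tg) at 1500 UMIs per cell, 19.0% and 13.3% at 1000, and 32.0% in TNF-Tg with a chain set at 2 UMIs. Genes higher in Trdc-only cells numbered 88 with at least 50 UMIs, 58 at a fold of 3 and 84 without ribosomal and mitochondrial UMIs. Genes higher in Trac-only cells numbered 42 at a fold of 3 and 100 with each cell weighing the same. Genes higher in TNF-Tg and in WT numbered 20 and 77 with at least 50 UMIs, 13 and 66 at a fold of 3, 24 and 57 in Trdc-only cells, and 23 and 39 in those with *Cd163l1* (chosen after seeing the data). The 50-UMI minimum and the larger fold admit fewer genes, and the subsets fewer cells. For the other settings the cause was not tested.

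Without the myeloid-marked cells (chosen after seeing the data, by these MHC class II genes among others), the log2 ratios of Trdc-only over Trac-only turned to 0.58 in WT and 1.12 in TNF-Tg for *H2-Eb1*, and in WT to 0.94 for *Cd74*, 1.54 for *H2-Ab1* and 2.90 for *H2-Aa*. The log2 ratio of TNF-Tg over WT turned for *Hist1h2ae* to 0.77 in Trac-only cells and 1.64 without the proliferating cells, and for *Hist1h2ap* to 2.63 in Trac-only cells, 0.67 in Trdc-only cells and 2.40 without the proliferating cells. In Trac-only cells the *Hist1h2ap* ratio was 1.44 without the cell holding most of its UMIs. TNF-Tg Trac-only cells held 60 UMIs of this gene, and all TNF-Tg gated cells without the myeloid-marked cells held 25.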
